A study of Mus musculus with 18 samples.

Results

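The hair shaft program was compared between the 9 mouse skin libraries with the lowest and the 9 with the highest level of hair keratin genes, out of 18 libraries in all. The libraries of each group were chosen by a measured score, computed for each library as the mean of log2(CPM + 1), where CPM is the count of a gene scaled by the total of its library, over the hair keratin genes Krt31, Krt33a, Krt33b, Krt34, Krt35, Krt81 and Krt86. The rule for the score holds 8 genes, and 1 of them was not analysed here. The libraries come from a bulk RNA sequencing study of skin treated with detergent A, detergent B or phosphate-buffered saline (PBS, the control), with 6 libraries per treatment. All were from C57BL/6 mice, an inbred laboratory strain, aged 8 to 12 weeks, with no genetic change given. The labels give no dose, duration, body site or hair cycle stage, and do not say whether each library is its own animal, so p-values measure only the spread between these samples. The low-score group held 4 detergent A, 4 detergent B and 1 PBS libraries, and the high-score group 2 detergent A, 2 detergent B and 5 PBS libraries.

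Hair is made by the follicle, a pocket of the epidermis that grows, regresses and rests in cycles. In the growth phase, called anagen, matrix cells at the base of the follicle divide next to a cluster of dermal cells, the dermal papilla, and then become the hair shaft and the inner root sheath that moulds it. Shaft cells fill with hair keratins and keratin-associated proteins, and melanocytes of the matrix hand them pigment. Between growth phases this lower part of the follicle is lost and the stem cells of the bulge and the germ below it stay behind.

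Since the score chose the groups, every difference between them was treated as a description without a test, and a gene was counted as lower or higher where it differed at least 2-fold. Fold changes are those of the low-score over the high-score group from edgeR's quasi-likelihood model with treatment as a covariate, fitted to 16836 genes, of which 16767 lay outside the keratin (Krt) and keratin-associated protein (Krtap) families. Levels of single genes are CPM scaled by TMM (trimmed mean of M values, which corrects totals for a few dominant genes). Standard deviations are over libraries, with n = 9 per group unless another number is given.

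The promoters of 3 leading genes are shown because these genes, which act in the shaft and its sheath, were among the 10 with the largest deficits in the low-score group. Tchh encodes trichohyalin, a protein of the inner root sheath and the medulla, on chromosome 3 from 93442330 to 93449077. Prr9 encodes a proline-rich protein of the differentiating shaft, on chromosome 3 from 92122204 to 92123947 on the minus strand. Padi3 encodes the peptidylarginine deiminase that modifies trichohyalin, on chromosome 4 from 140785365 to 140810648 on the minus strand. Each line gives 250 bases before to 50 bases after the gene start from RefSeq on GRCm38.p6, 5′ to 3′ on the strand of the gene, with motif matches in capitals.
Tchh, chr3:93442080-93442379, plus strand: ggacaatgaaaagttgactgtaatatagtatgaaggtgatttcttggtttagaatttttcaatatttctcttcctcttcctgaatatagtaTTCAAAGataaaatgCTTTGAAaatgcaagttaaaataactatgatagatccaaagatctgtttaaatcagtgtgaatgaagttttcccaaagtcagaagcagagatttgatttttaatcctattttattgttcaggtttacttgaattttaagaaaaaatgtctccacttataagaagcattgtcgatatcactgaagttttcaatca
Prr9, chr3:92123898-92124197, minus strand: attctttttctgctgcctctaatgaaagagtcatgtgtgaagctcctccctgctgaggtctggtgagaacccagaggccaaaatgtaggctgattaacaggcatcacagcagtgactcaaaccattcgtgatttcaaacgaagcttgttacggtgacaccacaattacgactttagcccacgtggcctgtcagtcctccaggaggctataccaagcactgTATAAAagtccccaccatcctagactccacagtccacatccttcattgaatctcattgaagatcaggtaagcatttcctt
Padi3, chr4:140810599-140810898, minus strand: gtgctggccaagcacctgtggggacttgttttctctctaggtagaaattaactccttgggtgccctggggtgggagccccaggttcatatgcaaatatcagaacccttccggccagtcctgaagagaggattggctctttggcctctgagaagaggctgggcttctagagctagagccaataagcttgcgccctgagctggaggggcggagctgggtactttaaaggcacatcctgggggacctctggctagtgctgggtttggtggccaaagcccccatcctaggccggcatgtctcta
Both strands were searched for TATAAA, a common form of the TATA box. They were also searched for core forms of the LEF/TCF site, which were CTTTGAT in the first form and CTTTGAA in the other. The capitals in Tchh mark 2 LEF/TCF matches, one on each strand, starting 144 and 159 bases before the gene start, and those in Prr9 mark TATAAA starting 30 bases before it. Padi3 held neither in this window. TATAAA was in 4 of 10 promoters of the shaft list, which covered 6 of its 7 genes, against 13.6% of 32851 promoters in all. Besides Prr9 these were 1 promoter of S100a3, starting at 52 bases before the gene start, Gprc5d at 53 and Hephl1 at 73. The matches in Gprc5d and Hephl1 lay on the opposite strand, and Hephl1 was not among the lower genes of the list. The LEF/TCF forms were in 1 of 10 shaft promoters, against 8.65% of all promoters. Promoters of 1 gene share sequence, and a match describes letters only. The searched motifs share no match.

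Scores ran from 0.084 in detergent A replicate 5 to 5.27 in PBS replicate 1. They averaged 0.730 ± 0.648 in the low-score group and 3.43 ± 0.939 in the high-score group. Just inside the boundary lay detergent A replicate 1 at 2.18, and just outside it detergent A replicate 6 at 2.34, a step of 0.154. The step below detergent A replicate 1 was wider, at 1.07, so that library lay closer to the high-score group than to the other 8 low-score libraries. PBS replicate 6 scored 1.12 and was the 1 PBS library of the low-score group. The counts of treatments in the groups gave p = 0.280 by Fisher's exact test, two-sided (n = 18), and 0.0438 without PBS replicate 6. The same Fisher's exact test gave p = 0.357 with detergent A replicate 1 placed among the high-score libraries. Of the hair shaft markers given for the comparison, Krt31, Krt35 and Krt81 are genes of the score, and another was not analysed here. The levels of Krt31, Krt35 and Krt81 therefore describe the groups and do not test the name of the groups. Krt35 had a lowest, median and highest level of 0.148, 6.29 and 97.1 CPM in the low-score group, against 84.3, 200.2 and 246.6 CPM in the high-score group. Krt31 ranged from 0.0494 to 2.27 CPM in the low-score group and from 2.82 to 44.8 CPM in the high-score group, and Krt81 from 0 to 1.33 CPM and from 1.60 to 21.8 CPM in the same order. Krt81 was at 0 in 3 low-score libraries, Krt34 in 5 and Krt33b in 4.

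**Figure D1:**
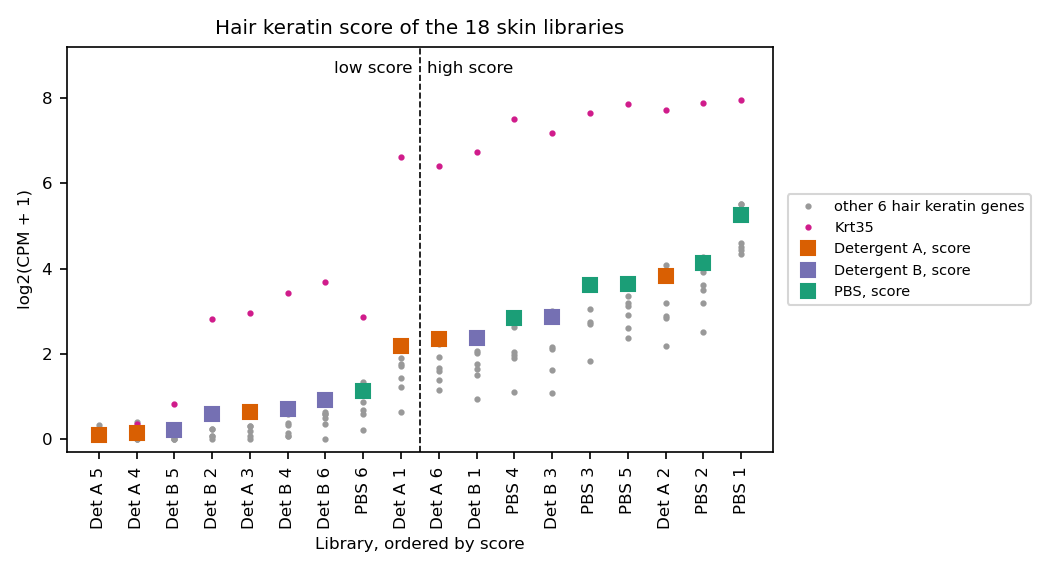
Hair keratin score (squares) and the log2(CPM + 1) of its 7 genes (dots, Krt35 in magenta) in each of 18 libraries ordered by score, coloured by treatment, with a dashed line between the 9 low-score and the 9 high-score libraries. Detergent A replicate 1, the last library left of the line at 2.18, sits beside the first one right of it at 2.34, and Krt35 lies above the other hair keratins in nearly every library.

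Library totals were 17312623 to 29308184 counts in the low-score group and 18972932 to 29599018 counts in the high-score group, so depth overlapped. All Krt and Krtap genes together, most of whose counts are epidermal keratins, took 4.12% to 6.05% of the counts in the low-score group and 3.06% to 4.86% in the high-score group. Mitochondrial genes took 2.24% to 3.05% and 2.15% to 2.82% in the same order. Skin markers were present in every library, with summed levels of 20 cornified envelope genes from 11618 to 21601 CPM in the low-score group and from 8033 to 16912 CPM in the high-score group.

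Outside the keratin families, 427 genes (2.55%) were at least 2-fold lower and 154 (0.918%) at least 2-fold higher in the low-score group, or 581 (3.47%) in either direction. Of these, 421 lower and 130 higher genes had the same sign of difference within detergent A, within detergent B and within PBS. The same libraries gave the fold changes, and PBS has 1 low-score library, so the shared sign is no separate support. The share of all genes with a shared sign is not given here. In 258 genes (1.54%) every low-score library lay below every high-score library, and in 98 (0.584%) every one lay above. The median log2 fold change of all genes was 0.02, and 47.2% were below 0 and 52.8% above 0. Scaling by library totals alone moved that median to -0.10, a shift that applies to every gene and list below. With the 3 lowest against the 3 highest libraries of each treatment, which balances the treatments, 271 genes were at least 2-fold lower and 24 at least 2-fold higher.

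Of 7 shaft structure genes outside the keratins, 6 were at least 2-fold lower and none higher, against 2.55% and 0.918% of all genes, and the median log2 fold change was -3.53. In a bulk sample, fewer cells of a type and less RNA per cell cannot be told apart, here and for all cell types below. Padi3 had a lowest, median and highest level of 0.125, 1.72 and 39.7 CPM in the low-score group, against 23.3, 94.7 and 155.7 CPM in the high-score group. Only detergent A replicate 1 reached into the range of the high-score group, and the other 8 low-score libraries had at most 3.69 CPM. Its log2 fold change was -4.03, the largest deficit among the genes named by size. Prr9 had 0.814, 5.03 and 47.2 CPM against 29.5, 110.2 and 356.2 CPM, with a log2 fold change of -3.75. S100a3, a calcium-binding protein of the hair cuticle, had 1.006, 5.09 and 29.2 CPM against 26.9, 80.3 and 231.3 CPM, with one of -3.53. For both genes, too, the highest low-score value belonged to detergent A replicate 1 and was the only one to overlap.

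Gprc5d, an orphan receptor gene of differentiating shaft cells, averaged 0.236 ± 0.288 CPM in the low-score group and 5.56 ± 6.88 CPM in the high-score group, without overlap, and Vsig8, which encodes a shaft cell surface protein, averaged 0.554 ± 0.742 and 9.82 ± 8.77 CPM, also without overlap. The high-score mean of Gprc5d rested largely on PBS replicate 1, at 23.4 CPM against a group median of 3.75 CPM. Dsg4, a desmosomal cadherin whose loss gives fragile hair, averaged 2.29 ± 3.10 CPM against 13.04 ± 4.60 CPM, a log2 fold change of -2.61. Hephl1, a copper ferroxidase linked to hair shape, was the exception, at 81.2 ± 13.7 CPM against 60.8 ± 9.35 CPM and a log2 fold change of 0.36.

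Of 6 inner root sheath genes, 4 were at least 2-fold lower, against 2.55% of all genes. Tchh had 9.27, 33.9 and 532 CPM in the low-score group, against 213, 1093 and 2094 CPM in the high-score group, a log2 fold change of -3.73. Outside detergent A replicate 1, the highest low-score value of Tchh was 60.2 CPM. Tchhl1, a gene of the same fused S100 family, averaged 2.38 ± 1.20 CPM against 13.2 ± 14.4 CPM. Padi1, another deiminase, averaged 9.85 ± 4.96 CPM against 22.1 ± 6.72 CPM. Cux1, a transcription factor of the sheath, averaged 107 ± 42.6 CPM against 239 ± 27.8 CPM. The remaining members were Gata3, a sheath regulator with a log2 fold change of -0.01, and Tgm3, a transglutaminase that also serves the epidermis, at 73.6 ± 15.4 CPM against 38.1 ± 15.1 CPM and 0.73.

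The genes with the largest deficits by size also included some without a shaft role in the lists. Tgm6, a transglutaminase, averaged 1.42 ± 3.07 CPM in the low-score group and 16.7 ± 8.51 CPM in the high-score group. Fbp1, the gluconeogenic enzyme fructose bisphosphatase, averaged 2.11 ± 3.95 and 24.1 ± 10.01 CPM. Capn8, a calpain protease, averaged 0.924 ± 2.26 and 11.5 ± 5.55 CPM. Kcnk16, a potassium channel, averaged 0.682 ± 1.34 and 9.69 ± 5.10 CPM. These 4 genes had log2 fold changes from -3.57 to -3.82, and in each the highest low-score value, that of detergent A replicate 1, overlapped the high-score range. Without that library, Capn8 was at -5.61, Kcnk16 at -5.02, Tgm6 at -5.01 and Fbp1 at -4.57. Calhm4, of the calcium homeostasis modulator family, had 0, 0.0530 and 1.83 CPM against 1.56, 5.78 and 20.3 CPM, and Lyg2, of the goose-type lysozyme family, 0, 0.110 and 2.83 CPM against 2.65, 8.19 and 37.4 CPM. These low levels rest on few counts in the low-score group.

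**Figure D2:**
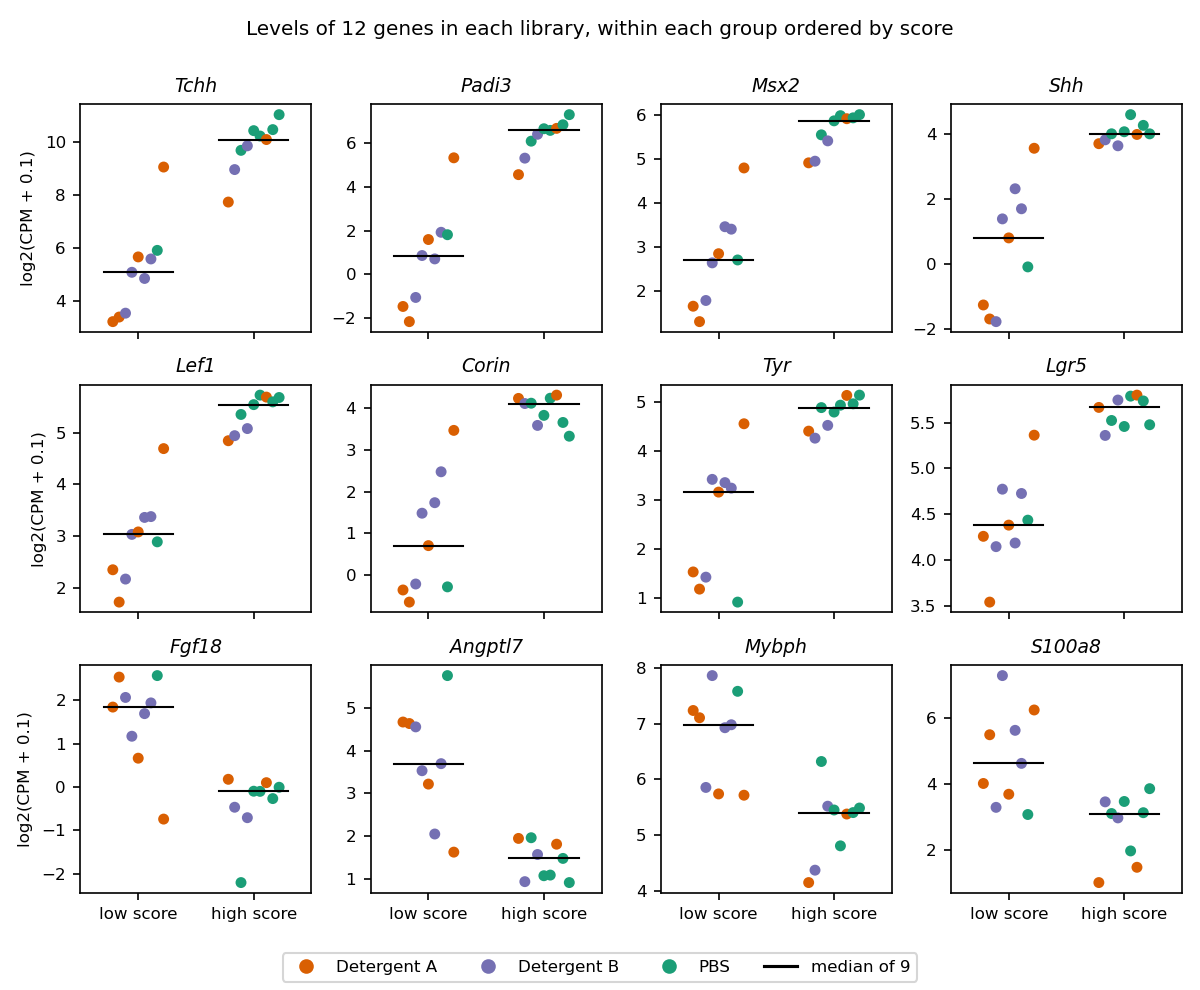
Levels of 12 genes as log2(CPM + 0.1) in each library, with the low-score group left of the high-score group, points ordered by score within each group, colours for treatments and lines for the medians of 9. In the upper 8 panels the right-most low-score point, detergent A replicate 1, lies at or near the high-score range while the other 8 low-score points lie below it, and in the panels of Fgf18 and Angptl7 the same library is the lowest of its group.

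Transcription factors of the hair matrix and shaft split into a group that was lower and a group that was not. Of 16 members, 7 were at least 2-fold lower, against 2.55% of all genes, and none higher, and the list median was -0.41. In 6 of the 7 the groups did not overlap, against 1.54% of all genes. Msx1, a homeobox factor of the follicle, had 0.685, 1.35 and 12.1 CPM in the low-score group, against 14.9, 26.5 and 38.1 CPM in the high-score group, a log2 fold change of -3.15. Msx2, its relative in matrix cells, had 2.38, 6.42 and 27.6 CPM against 29.9, 57.9 and 63.8 CPM and -2.40. Dlx4, Dlx2 and Dlx3, distal-less homeobox factors, had log2 fold changes of -2.65, -2.32 and -1.73. Lef1, the nuclear partner of beta-catenin in the precursors of the shaft, had 3.21, 8.10 and 25.7 CPM against 28.6, 46.5 and 52.8 CPM, and -2.10. Every low-score library lay below every high-score library in these 6 genes.

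Hoxc13, which switches on hair keratin genes, had 4.48, 7.79 and 27.53 CPM against 27.47, 51.2 and 68.3 CPM, with the highest low-score and the lowest high-score library nearly equal, and a log2 fold change of -2.08. Foxn1, the factor missing in nude mice, differed far less, at 21.02 ± 3.57 CPM against 27.3 ± 3.89 CPM and -0.28. Trps1 had a log2 fold change of -0.48, and Hr, the hairless corepressor, one of 0.04, at 494 ± 84.2 CPM against 508 ± 52.8 CPM. Prdm1 and Bcl11b, factors that epidermal cells also express, had 0.31 and 0.22.

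Wnt signals drive the matrix and the shaft. Of 15 Wnt pathway genes measured, 7 were at least 2-fold lower, against 2.55% of all genes, and none higher, with a median of -0.94. Wnt10b, a ligand that promotes growth phase, had 2.06, 6.68 and 18.5 CPM in the low-score group, against 19.0, 29.0 and 32.5 CPM in the high-score group, without overlap and with a log2 fold change of -1.90. Wnt11 averaged 5.89 ± 2.77 CPM against 27.5 ± 9.83 CPM, also -1.90. Wnt5a, a ligand of the non-canonical branch, averaged 20.5 ± 8.35 CPM against 50.6 ± 8.98 CPM. The feedback inhibitors Nkd2 and Nkd1 had -1.48 and -0.94, and the groups did not overlap for Nkd1. Axin2, a target that many Wnt-responding cells share, had -0.08. On the other side of 0 stood Dkk2, a secreted Wnt inhibitor, at 17.3 ± 7.25 CPM against 9.93 ± 2.08 CPM and 0.96, and Wnt3 at 0.68.

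Hedgehog signalling, through which matrix cells act on each other and on the dermis, was lower at most steps. Of 9 genes, 5 were at least 2-fold lower, against 2.55% of all genes, with a median of -1.21. Shh, the ligand, had 0.192, 1.64 and 11.7 CPM in the low-score group, against 12.4, 15.97 and 24.1 CPM in the high-score group, a log2 fold change of -2.52. No library of the groups overlapped for Shh, although detergent A replicate 1 came within a CPM of the lowest high-score library. The receptor and target Ptch1 averaged 77.2 ± 46.3 CPM against 170 ± 26.8 CPM. The target and effector Gli1 averaged 49.6 ± 25.2 CPM against 145 ± 25.6 CPM, and the target Hhip 4.005 ± 2.13 CPM against 12.9 ± 2.51 CPM, both without overlap. Smo, the signal transducer, had -0.33. Gas1, a co-receptor also used as a stem cell marker, was the member above 0 without overlap, at 82.9 ± 8.75 CPM against 65.8 ± 5.55 CPM.

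BMP, FGF and related growth signals showed no common shift, with a median of -0.09. Of 19 members, 1 was at least 2-fold lower and 1 higher, against 2.55% and 0.918% of all genes. Edar, the ectodysplasin receptor, averaged 3.38 ± 1.53 CPM against 7.13 ± 1.09 CPM. Bmp6 had a log2 fold change of -0.61 without overlap. Fgf18, a ligand known to hold the follicle in rest, went the other way. It had 0.499, 3.48 and 5.81 CPM in the low-score group, against 0.118, 0.833 and 1.03 CPM in the high-score group, a log2 fold change of 2.29, with 8 of 9 low-score libraries above all high-score ones and detergent A replicate 1 as the exception. Fgf5, which ends the growth phase, was near the detection limit at 0.598 ± 0.254 CPM against 1.001 ± 0.658 CPM. Of 9 Notch pathway genes 1 was at least 2-fold lower, against 2.55% of all genes, with a median of -0.02. That gene was Heyl, a Notch target, at 6.40 ± 5.59 CPM against 32.7 ± 5.14 CPM without overlap. Notch1 and the ligand gene Jag1 had -0.59 and -0.61.

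Among 14 dermal papilla genes, 5 were at least 2-fold lower, against 2.55% of all genes, and none higher, with a median of -0.42. Corin, a protease of papilla cells, had 0.542, 1.54 and 10.9 CPM in the low-score group, against 9.92, 17.1 and 19.7 CPM in the high-score group, and 8 of 9 low-score libraries lay below all high-score ones. Alpl, alkaline phosphatase, averaged 5.76 ± 1.62 CPM against 12.7 ± 2.02 CPM without overlap, and Vcan, which encodes the matrix proteoglycan versican, 56.4 ± 22.6 CPM against 123 ± 28.9 CPM. Crabp1, a retinoic acid binding protein also made by other dermal fibroblasts, averaged 26.9 ± 4.37 CPM against 16.96 ± 6.10 CPM, and Sox2 had -0.63. Markers of the bulge and the outer root sheath, the parts that persist through the cycle, had a median of -0.19. Of 10 members, 2 were at least 2-fold lower and 1, Fgf18, higher, against 2.55% and 0.918% of all genes. Lgr5, the R-spondin receptor of cycling follicle stem cells, averaged 22.6 ± 8.39 CPM against 49.3 ± 5.55 CPM. Tcf7l1 averaged 12.4 ± 2.75 CPM against 27.0 ± 3.75 CPM without overlap, and Lhx2 43.2 ± 9.84 CPM against 82.9 ± 14.5 CPM without overlap. The stem cell factor Sox9 and the surface marker Cd34 had -0.29 and -0.09.

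Melanocyte genes were lower with the shaft. Of 16 members, 12 were at least 2-fold lower, against 2.55% of all genes, and none higher, with a median of -1.77. Tyr, the rate-limiting enzyme of melanin synthesis, had 1.79, 8.85 and 23.4 CPM in the low-score group, against 19.1, 29.5 and 35.2 CPM in the high-score group, and -1.87. Its lowest value of all belonged to PBS replicate 6, and detergent A replicate 1 was the only low-score library within the high-score range. Dct averaged 74.0 ± 47.1 CPM against 194 ± 24.9 CPM, and Pmel, which forms the fibrils of the melanosome, 35.3 ± 26.6 CPM against 106 ± 17.4 CPM. The transporter gene Oca2 and the melanocyte channel gene Trpm1 had -2.95 and -2.33. Mc1r, the melanocortin receptor, and Slc45a2, a melanosome transporter, did not overlap between groups, at -1.90 and -2.16. The lineage factors Mitf, Sox10 and Kit, which other skin cells also express, had smaller differences of -0.41, -0.63 and -0.73, and Rab38 had 0.39. The mean list score differed by -1.76 within detergent A, -1.33 within detergent B and -2.73 within PBS.

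All 25 cell cycle genes were below 0, where 47.2% of all genes were, but none by 2-fold, and the median was -0.41. Mki67, which encodes the proliferation marker Ki-67, had 108, 166 and 335 CPM in the low-score group, against 237, 272 and 291 CPM in the high-score group, with a log2 fold change of -0.56. The highest value of all 18 libraries was that of detergent A replicate 1, and the other 8 low-score libraries lay below every high-score library. Top2a averaged 153 ± 54.0 CPM against 223 ± 13.9 CPM, and Foxm1, a factor of mitotic genes, had the largest deficit at -0.72. For Mki67 and Top2a the low-score libraries were more spread than the high-score libraries. Dividing matrix cells and dividing epidermal cells both express them.

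**Figure D3:**
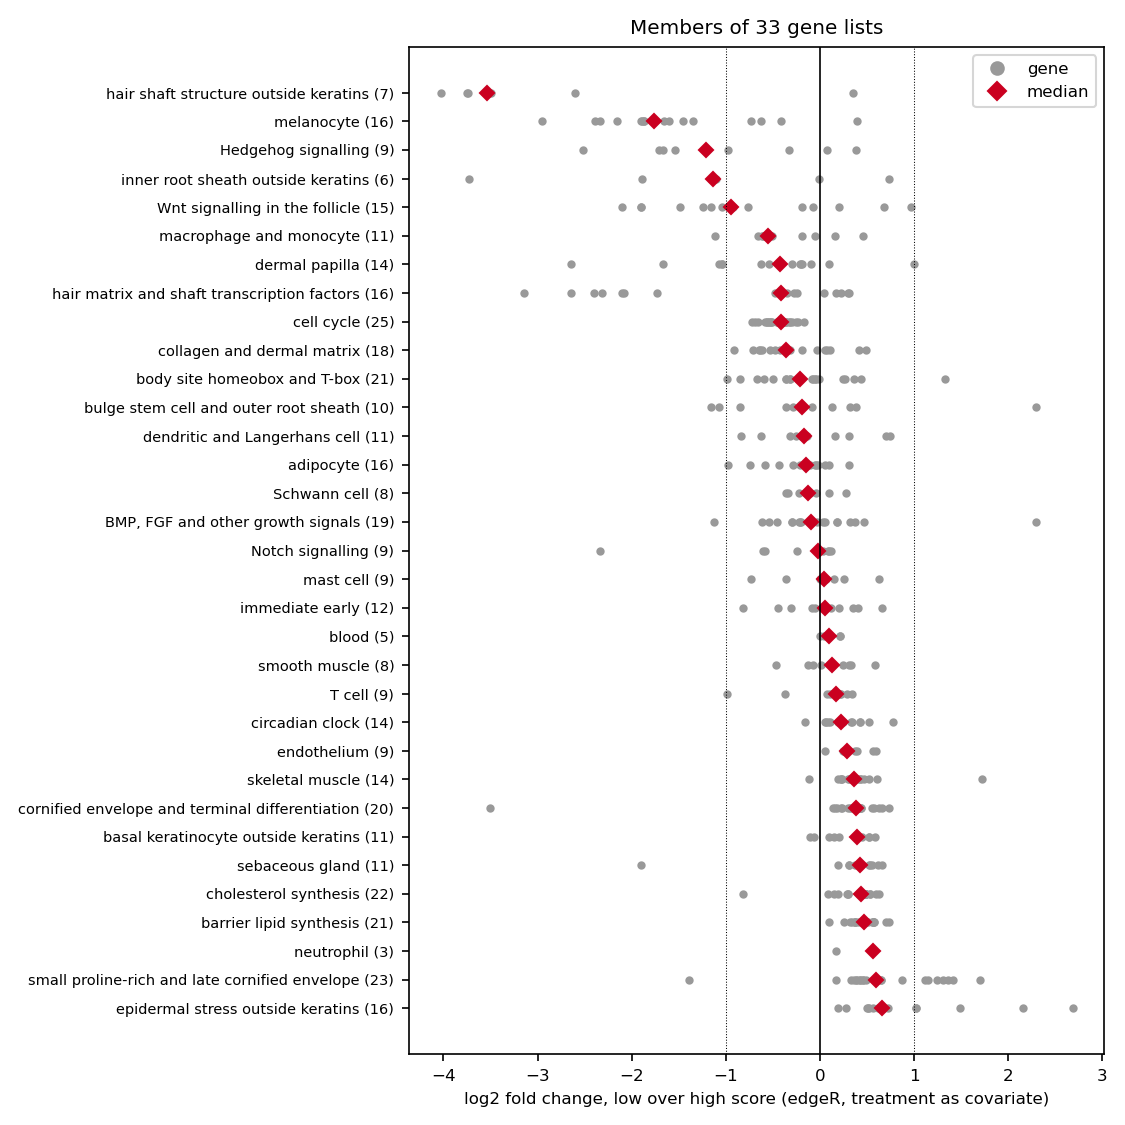
Log2 fold change of each member (grey) and the median (red) of 33 gene lists, low-score over high-score group, ordered by median, with the number of members tested in brackets and dotted lines at 2-fold. The shaft list stands lowest with a median of -3.53, followed by melanocyte (-1.77) and Hedgehog genes (-1.21), and the epidermal stress list highest with 0.66.

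Genes of the interfollicular epidermis lay on the other side of 0, mostly by less than 2-fold. In the cornified envelope list 19 of 20 genes were above 0, where 52.8% of all genes were, with a median of 0.39. Ivl, the envelope precursor involucrin, averaged 466 ± 112 CPM in the low-score group and 281 ± 91.5 CPM in the high-score group, with a log2 fold change of 0.43. Lor, loricrin, averaged 868 ± 350 CPM against 647 ± 180 CPM and had 0.42, with detergent A replicate 1 the lowest of all libraries at 213 CPM. Flg, filaggrin, averaged 1552 ± 615 CPM against 1043 ± 532 CPM and had 0.23. Differences of mean log2 CPM within detergent A, detergent B and PBS were 0.04, 0.30 and 1.02 for Lor. For Flg they were -0.19, 0.34 and 0.73. Without PBS replicate 6, the only PBS library of the low-score group, the log2 fold changes were 0.22 for Lor and 0.07 for Flg. Spink5, the protease inhibitor lost in Netherton syndrome, averaged 699 ± 69.2 CPM against 444 ± 69.3 CPM without overlap. The 1 member at least 2-fold lower, against 2.55% of all genes, was Crnn, cornulin. It averaged 5.57 ± 9.64 CPM against 63.1 ± 28.5 CPM and had -3.51.

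Of 21 barrier lipid genes, all were above 0, where 52.8% of all genes were, and none by 2-fold, with a median of 0.47. Sptlc3, a subunit of the first enzyme of ceramide synthesis, had 80.4, 94.0 and 124 CPM in the low-score group, against 46.9, 57.0 and 69.2 CPM in the high-score group, and its groups did not overlap. Sdr9c7, a dehydrogenase of the corneocyte lipid envelope, averaged 191 ± 40.9 CPM against 99.6 ± 29.2 CPM. Lipk, an epidermal lipase, averaged 34.2 ± 7.12 CPM against 21.1 ± 5.96 CPM. Of 22 cholesterol synthesis genes 21 were above 0, where 52.8% of all genes were, with a median of 0.44. In 5 of them every low-score library lay above every high-score library, against 0.584% of all genes. These were Sqle, Hmgcs1, Fdps, Cyp51 and Pmvk, a set named after its values were seen. Mvd averaged 86.8 ± 15.7 CPM against 56.3 ± 9.004 CPM and Idi1 37.2 ± 5.39 CPM against 22.9 ± 3.52 CPM. Of 11 sebaceous gland genes 10 were above 0, where 52.8% of all genes were. Their median was 0.42, with Elovl3 at 0.66 and Acsbg1 at 0.62. Fads2, a desaturase, was the 1 at least 2-fold lower, against 2.55% of all genes, at 3.71 ± 1.92 CPM against 16.1 ± 4.92 CPM. Basal keratinocyte genes outside the keratins had a median of 0.39, with 9 of 11 above 0, where 52.8% of all genes were. The hemidesmosome genes Col17a1, Dst and Lamb3 had 0.52, 0.52 and 0.58.

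In 23 small proline-rich and late cornified envelope genes, 7 were at least 2-fold higher and 1 lower, with a median of 0.60. Of all genes, 0.918% were at least 2-fold higher and 2.55% lower. These families hold near-identical copies, so single members are uncertain. Sprr2f averaged 8.35 ± 7.76 CPM against 1.63 ± 1.31 CPM, and its difference of mean log2 CPM was 3.02 within detergent A, 1.11 within detergent B and -1.59 within PBS. The lowest Sprr2f value of the low-score group belonged to PBS replicate 6, at 0.279 CPM. Sprr2b, at 1.16 ± 0.865 CPM against 0.272 ± 0.158 CPM, also had the opposite sign within PBS, at -1.59. With detergent A replicate 1 placed among the high-score libraries, Sprr2f was at 0.12 and Sprr2b at 0.36. The list score differed by 1.51 within detergent A, 0.35 within detergent B and -0.17 within PBS. Sprr2a1 was fitted at -1.39, although its means were 3.08 ± 7.12 CPM and 3.14 ± 5.83 CPM, and its 3 highest levels were 22.0 CPM in detergent A replicate 3 of the low-score group and 16.1 and 9.90 CPM in detergent B replicates 1 and 3 of the high-score group.

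The epidermal differentiation complex on chromosome 3 holds genes of the shaft, the sheath and the epidermis side by side. From S100a1 to S100a10, at 90511034 to 93564643 on GRCm38, 68 protein-coding genes were measured. Of these, 60 lay above 0, where 52.8% of all genes did, with a median of 0.42. In the complex 7 genes were at least 2-fold lower and 12 at least 2-fold higher, against 2.55% and 0.918% of all genes. The 7 lower genes were S100a3, S100a7a, Prr9, Sprr2a1, Crnn, Tchh and Tchhl1. Prr9 and Sprr2a1 lay next to each other, as did Tchh and Tchhl1, while S100a3, S100a7a and Crnn had neighbours above 0 on both sides. The 12 higher genes were S100a8, S100a9, Sprr2a3, Sprr2b, Sprr2d, Sprr2e, Sprr2f, Sprr2j-ps, Sprr2k, Lce3a, Lce3b and Lce3f, some of which were named after their values were seen. The groups overlapped in each of the 7 lower and 12 higher genes. Within PBS, where 1 library stands against 5, most of the 12 had a difference of mean log2 CPM below 0. Only S100a9 (0.24), Sprr2a3 (0.31) and Sprr2k (0.81) lay above 0 there. Flg and Tchh, fused S100 genes near each other in this cluster, had 0.23 and -3.73.

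**Figure D4:**
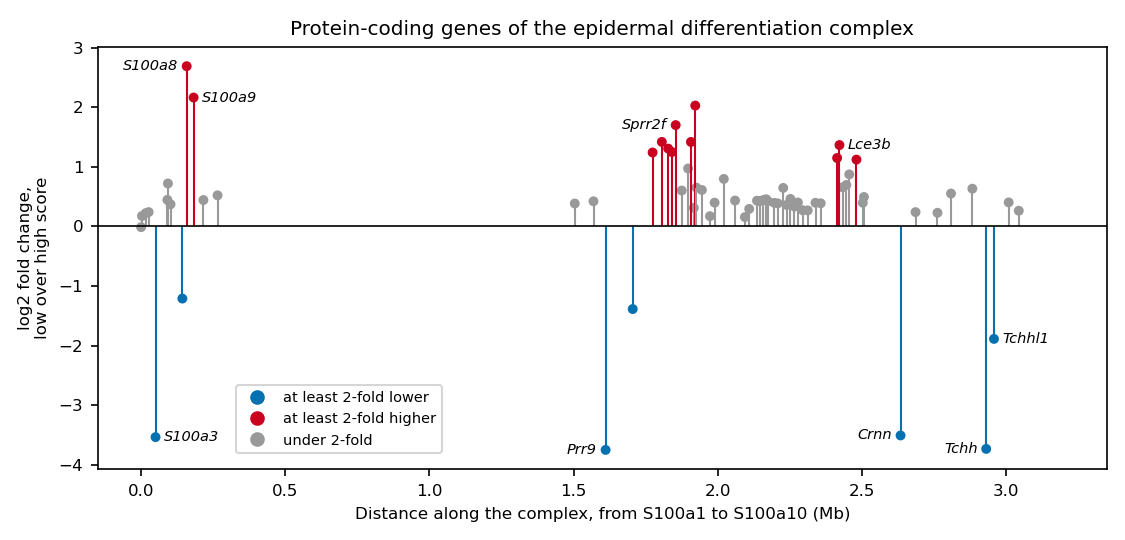
Log2 fold change, low-score over high-score group, of 68 protein-coding genes along the epidermal differentiation complex, by distance in Mb from the start of S100a1, with genes at least 2-fold lower in blue, at least 2-fold higher in red and others in grey. Blue lines at S100a3, Prr9, Crnn, Tchh and Tchhl1 reach from -1.89 to -3.75 among grey lines above 0, and red lines gather at S100a8 and S100a9 and in the Sprr2 and Lce3 groups.

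Stress and alarm genes of the epidermis were higher, but less evenly. All 16 members were above 0, where 52.8% of all genes were, with a median of 0.66. Of them, 5 were at least 2-fold higher, against 0.918% of all genes. S100a8, a subunit of calprotectin, had 8.27, 24.4 and 155 CPM in the low-score group, against 1.90, 8.44 and 14.3 CPM in the high-score group, with 6 of 9 low-score libraries above all high-score ones. S100a9, its partner, had 14.9, 37.3 and 148 CPM against 4.63, 11.6 and 25.5 CPM. Their log2 fold changes were 2.69 and 2.16, and with the 3 lowest against the 3 highest libraries of each treatment they were 0.73 and 0.89. Within PBS, where 1 library stands against 5, their differences of mean log2 CPM were -0.03 and 0.24. Cxcl2, a neutrophil-attracting chemokine and the largest excess by size, had 0.253, 3.003 and 35.7 CPM against 0.316, 1.09 and 1.45 CPM. Its highest levels were those of detergent A replicate 1 at 35.7 CPM and detergent B replicate 4 at 18.9 CPM, and its log2 fold change of 3.03 was 2.07 without detergent A replicate 1. With detergent A replicate 1 placed among the high-score libraries, as the wider step in the score would have it, the log2 fold change of Cxcl2 was -0.15. The same placing gave S100a8 0.78, S100a9 0.64 and Serpinb3a 0.996, so that none of these 4 genes was at least 2-fold higher. Of 8 neutrophil markers 3 passed the filter on low counts, while the defining genes Ly6g, Mpo, Elane, Camp and Ngp did not pass. The 3 had a summed level of 29.5 to 107.6 CPM in the low-score group against 18.2 to 43.3 CPM in the high-score group. Detergent A replicate 4 held the highest value, and the next low-score library had 54.6 CPM. The part of neutrophils in the chemokine and calprotectin differences was not tested. Serpinb3a, of the near-identical Serpinb3 family, averaged 6.40 ± 5.09 CPM against 1.44 ± 0.931 CPM, and Lcn2, lipocalin 2, 18.7 ± 9.48 CPM against 7.82 ± 2.87 CPM. The cytokine genes Il1f6 and Il1f8 had 0.62 and 0.56.

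Beside Cxcl2 and S100a9, the 10 genes with the largest excess included 8 others. Angptl7, a secreted angiopoietin-like protein, had 2.997, 12.9 and 53.9 CPM in the low-score group, against 1.79, 2.70 and 3.81 CPM in the high-score group, a log2 fold change of 2.94. PBS replicate 6 held its highest value, and 8 of 9 low-score libraries lay above all high-score ones. Igfl3, of the insulin growth factor-like family, had 2.13, 6.95 and 10.9 CPM against 0.549, 1.06 and 1.92 CPM, without overlap, and 2.08. Slc26a7, an anion transporter, had 4.16, 13.4 and 15.7 CPM against 1.98, 3.14 and 4.21 CPM, with 8 of 9 low-score libraries above all high-score ones and 2.05. Pappa2, a protease of insulin-like growth factor binding proteins, averaged 10.01 ± 5.11 CPM against 2.94 ± 1.24 CPM, and Wfdc3, a WAP domain protein, 8.75 ± 4.24 CPM against 2.54 ± 0.718 CPM. Chil3, a chitinase-like protein of myeloid cells, averaged 11.9 ± 6.95 CPM against 3.50 ± 2.06 CPM. Of the striated muscle genes, Mybph averaged 125 ± 62.8 CPM against 40.4 ± 18.3 CPM and Ankrd1 40.5 ± 24.4 CPM against 16.1 ± 11.1 CPM. Skeletal muscle markers differed less, with 13 of 14 above 0, where 52.8% of all genes were, and a median of 0.36. Their list score differed by -0.13 within detergent A, 0.89 within detergent B and 0.51 within PBS. Myh8, a developmental myosin, was the 1 at least 2-fold higher, against 0.918% of all genes. It averaged 7.95 ± 4.64 CPM against 2.82 ± 0.814 CPM. With the 3 lowest against the 3 highest libraries of each treatment, its log2 fold change was 0.74. The summed level of the muscle list ranged from 5774 to 17189 CPM in the low-score group and from 6271 to 12228 CPM in the high-score group, and its part in Mybph and Ankrd1 was not tested.

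**Figure D5:**
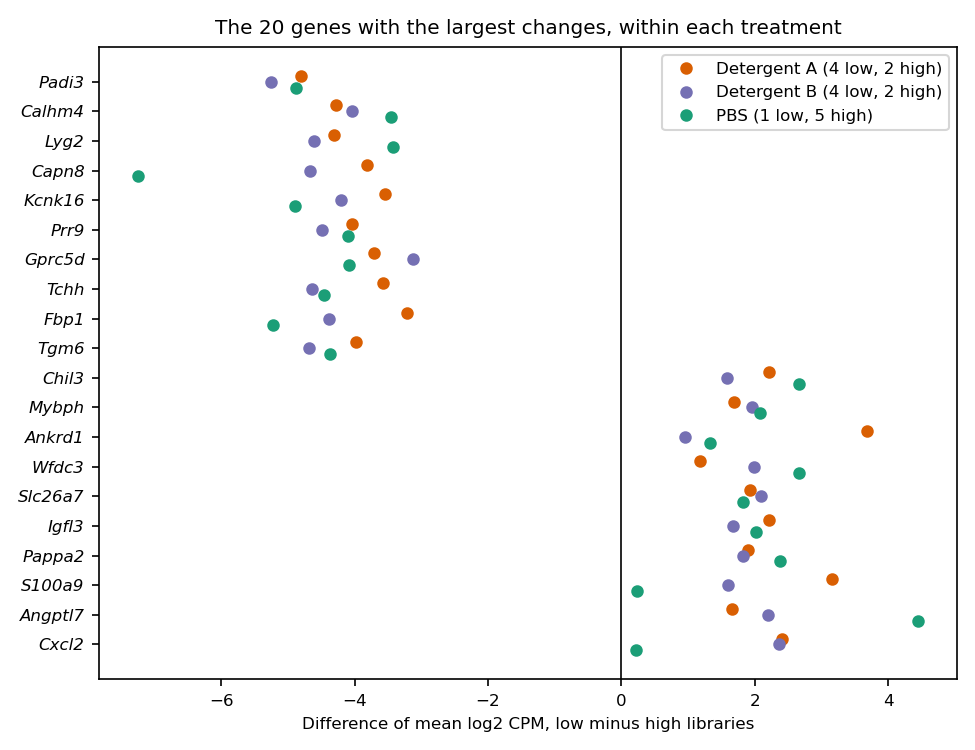
Difference of mean log2 CPM, low-score minus high-score libraries, within detergent A, detergent B and PBS, for the 10 genes with the largest deficits (top) and the 10 with the largest excess (bottom). All 20 genes keep their sign in each treatment, which the rule for naming them required, and S100a9 and Cxcl2 lie close to 0 within PBS, at 0.24 and 0.22.

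Of 18 collagen and dermal matrix genes, 13 were below 0, where 47.2% of all genes were, and none by 2-fold. The list median was -0.36. Col1a1 averaged 829 ± 245 CPM in the low-score group and 1490 ± 467 CPM in the high-score group, with -1.07 within detergent A, 0.04 within detergent B and -0.83 within PBS. Fn1, fibronectin, averaged 146 ± 36.4 CPM against 288 ± 51.4 CPM without overlap. Of 16 adipocyte genes 13 were below 0, again against 47.2% of all genes, with a median of -0.15. Lep, leptin, was at -0.98 and Adipoq, adiponectin, at -0.04. All 9 endothelial genes were above 0, where 52.8% of all genes were, with a median of 0.29, Cldn5 at 0.60 and Tie1 at 0.56. Smooth muscle genes had a median of 0.13, with Des at 0.59 and Tagln at -0.47. Schwann cell genes had one of -0.13, with S100b at -0.36, Prx at -0.33 and Mbp at 0.28. Summed levels of these lists overlapped between the groups, for adipocytes from 2302 to 4542 CPM against 2776 to 3864 CPM.

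Macrophage and monocyte genes had a median of -0.55, with 9 of 11 below 0, where 47.2% of all genes were. Their list score, though, differed by -1.13 within detergent A, 0.14 within detergent B and -0.18 within PBS. Cd163, a scavenger receptor of resident macrophages, averaged 40.2 ± 35.2 CPM against 68.6 ± 23.9 CPM, with its highest value of 125 CPM in detergent B replicate 5 of the low-score group. Lyz2 and C1qc had -0.65 and -0.62. The 3 neutrophil markers that passed the filter were all above 0, where 52.8% of all genes were, with Cxcr2 at 0.57. Their list score differed by 0.91 within detergent A, -0.31 within detergent B and 0.16 within PBS. Without detergent A replicate 4 their median was 0.23, against 0.56 with all libraries. T cell genes had a median of 0.17, with 7 of 9 above 0, where 52.8% of all genes were. Cd2 was at 0.34, while Cd4 and Lck, the 2 members below 0, were at -0.99 and -0.38, and Cd8a did not pass the filter. Dendritic and Langerhans cell genes had a median of -0.16, with Xcr1 at -0.84 and Ccr7 at 0.74. Mast cell genes had a median of 0.04, with Hdc at 0.63 and Kit at -0.73, and blood genes one of 0.10, with Hba-a2 at 0.22. Immediate early genes had a median of 0.06, with 7 of 12 above 0, against 52.8% of all genes. Among them Egr1 had -0.81, Nr4a1 -0.45 and Atf3 0.66. The medians of these 3 lists were below 0 when scaled by library totals.

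Circadian clock genes had a median of 0.23, with 13 of 14 above 0, where 52.8% of all genes were. Dbp averaged 62.0 ± 23.2 CPM against 38.2 ± 15.6 CPM and Nr1d1 105 ± 33.7 CPM against 72.9 ± 21.5 CPM. Within PBS, Dbp and Nr1d1 differed by 1.56 and 1.35, against -0.02 and 0.03 within detergent A. Homeobox and T-box genes that mark body position had a median of -0.21, with 16 of 21 below 0, where 47.2% of all genes were. The 1 at least 2-fold higher, against 0.918% of all genes, was Pitx1, at 0.533 ± 0.262 CPM against 0.265 ± 0.129 CPM. Hoxd8 and Hoxb6 had -0.99 and -0.67, and the groups did not overlap for Hoxb6.

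Treatment did not enter the score, so the contrasts of each detergent with PBS could be tested in the same model, which carried the score group as a covariate. With detergent A 0 of 16836 genes (0%) passed an adjusted threshold of 0.05 in edgeR, where 1651 had an unadjusted p under 0.05 and DESeq2 called 27 higher and 56 lower. With detergent B 14 genes (0.0832%) rose and 3 (0.0178%) fell. Of all 438 list members measured, 6 rose with detergent B, the envelope genes Ivl and Casp14, the ceramide enzyme gene Degs2, the cytokine genes Il1f6 and Il1f8 and the cystatin gene Stfa3, and none fell. Il1f6 rose by a log2 fold change of 1.30 (edgeR adjusted p = 0.0172) and Ivl by 0.85 (edgeR adjusted p = 0.0364). The score group is in the model, holds unequal numbers of each treatment and takes up differences that run with the hair score. These contrasts therefore say nothing of a detergent effect on hair genes, and none is given for them. The same limit holds for any other gene that runs with the score. With the 3 lowest against the 3 highest libraries of each treatment, which balances the treatments, 998 genes were called for detergent A and 1891 for detergent B. The 17 detergent B calls of the main model numbered 0 without PBS replicate 2, 3 or 6 or detergent B replicate 1 or 3. They numbered 1 without detergent B replicate 5 and 3 without PBS replicate 5. They numbered 99 without detergent A replicate 3.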

How the data were processed

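Bulk RNA sequencing libraries of mouse skin were aligned with STAR and counted per gene with featureCounts on GRCm38.p5, per the submitters' processing notes. Versions, annotation, strand and multi-mapping settings were not given in the sources used here. The values are raw read counts per gene, as deposited by the authors, 1 file per library, with 17312623 to 29599018 counts each. Of 41605 gene IDs, 41519 were named from GENCODE M21. Genes were filtered with filterByExpr, which kept at least 99.886% of counts and 16836 genes, scaled by TMM and fitted with edgeR 4.0.16 (R 4.3.3) by treatment and score group, with DESeq2 1.42.0 as an alternative. P-values for the detergents were adjusted by Benjamini-Hochberg over all genes tested, at 0.05. No score-group difference was tested, because the score chose the groups.

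The members and gene lists were chosen with earlier results of these data known. Named genes were the 10 largest changes each way among genes averaging 5 CPM or more in whichever group was higher, with the same sign within all 3 treatments, the 3 largest of each list with at least 1 CPM, and 24 fixed genes. Other genes were named after their values were seen. The edgeR fit was tested on simulated data, and the list code was not. Splitting at 8 against 10 libraries was an alternative added after seeing the data. Near-identical genes (Sprr2, Serpinb3, Stfa, Lce, Hba) are uncertain as single genes. Some members of the lists are not reported here by name.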

Additional observations from a re-analysis of the deposited data

Results flagged for a closer look

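Single libraries stood apart within a score group in 33 of 320 tests by Dixon's criterion on groups of 9. Its usual chance rate of about 1 in 20 is no yardstick here, because the score cut the groups. Values of genes are log2 CPM, those of lists the mean log2 CPM of their members, and the hair keratin score is mean log2(CPM + 1). Each has the nearest other library of the group beside it. The hair keratin score set the groups, and genes that run with it share its order, so their values here are descriptions. Detergent A replicate 1 was the highest of the low-score group for the hair keratin score at 2.183 (next 1.117), the hair shaft structure outside keratins list score at 3.775 (next 1.831), Capn8 at 2.813 (next -0.5028), Tchh at 9.056 (next 5.915), Kcnk16 at 2.107 (next -0.6588), Dlx4 at 2.669 (next 1.155) and Fbp1 at 3.665 (next 0.6548). Detergent A replicate 1 was the lowest of the low-score group for Lor at 7.733 (next 9.218), Slc26a7 at 2.089 (next 3.173), Cldn5 at 2.331 (next 3.072) and Lipk at 4.144 (next 5.021). Detergent A replicate 3 was the highest of the low-score group for Sprr2a1 at 4.468 (next 0.5859). Detergent A replicate 3 was the lowest of the low-score group for Actn3 at 5.162 (next 6.819). Detergent B replicate 4 was the lowest of the low-score group for Lamb3 at 6.619 (next 7.17) and Notch1 at 6.572 (next 7.151). PBS replicate 6 was the lowest of the low-score group for the small proline-rich and late cornified envelope list score at 4.208 (next 5.449) and Sprr2f at -1.432 (next 1.541). Detergent A replicate 4 was the highest of the low-score group for Nr4a1 at 5.721 (next 4.321). Detergent A replicate 6 was the highest of the high-score group for the circadian clock list score at 5.493 (next 5.232), Dst at 9.39 (next 8.984), Ciart at 4.867 (next 4.154) and Acsbg1 at 9.178 (next 8.578). Detergent A replicate 6 was the lowest of the high-score group for Ankrd1 at -0.63 (next 2.932). Detergent B replicate 1 was the highest of the high-score group for Cnfn at 9.279 (next 8.293). Detergent B replicate 1 was the lowest of the high-score group for Bub1 at 4.169 (next 4.413) and Heyl at 4.414 (next 4.902). PBS replicate 5 was the lowest of the high-score group for the sebaceous gland list score at 6.343 (next 6.741), the cholesterol synthesis list score at 6.233 (next 6.545) and Idi1 at 3.98 (next 4.424). PBS replicate 1 was the highest of the high-score group for Tchhl1 at 5.655 (next 3.721) and Gprc5d at 4.552 (next 2.636). Detergent B replicate 3 was the highest of the high-score group for Pecam1 at 5.95 (next 5.473). PBS replicate 4 was the lowest of the high-score group for Fgf18 at -2.258 (next -0.727). Between the detergents, Sprr2a1 differed by 3.117 within detergent A and by -3.85 within detergent B, and S100b by -0.9292 and 0.3385, as low-score minus high-score mean log2 CPM. These opposite signs were not tested.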

How the results depend on the processing

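Of the 427 genes at least 2-fold lower and 154 higher, the counts were 2327 and 1808 with no filter on low counts and 271 and 24 with the 3 lowest against the 3 highest libraries of each treatment, and 307 were higher with 6 against 6 libraries. Leaving out each library gave 411 to 517 lower and 151 to 218 higher. The 17 detergent B calls became 69 with library totals, 34 with library sizes outside the keratin families, 139 with 6 against 6 libraries, 1891 with 3 against 3 within treatments, 82 with 8 against 10 libraries, 243 with DESeq2, 0 with the score as a number, and 0 to 99 when each library was left out. Detergent A had 0 calls, but 2 with 8 against 8 libraries, 998 with 3 against 3 within treatments, 63 with 8 against 10, 83 with DESeq2 and 0 to 1 when each library was left out. Fisher's exact p of 0.280 was 0.0438 without PBS replicate 6 and 0.357 with 8 against 10 libraries. Over single omissions it ranged from 0.0438 to 0.280. The cause of these shifts was not tested. Of 18 correlations of deviations between samples of the same replicate number, 8 were over 0.1 (-0.348 to 0.546). Samples of different numbers were not compared, so whether replicate numbers pair the samples was not tested. With the replicate block the detergent B calls were 0 and Sprr2a1 turned to 0.97, while Cxcl2 was -0.15 with 8 against 10 libraries, a split that also ended the 2-fold differences of S100a8 (0.78), S100a9 (0.64), Serpinb3a (0.996), Sprr2f (0.12), Sprr2b (0.36) and Sprr2a1 (-0.66). The growth signal and the dendritic cell list medians were 0.11 and 0.14 with 6 against 6 libraries, against -0.09 and -0.16 with all libraries. Over all alternatives, 3853 values of named genes moved by less than the spread between libraries and 48 by more. Low-count genes such as Calhm4 and Krt34 are limited by depth.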

Other observations

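With the 3 lowest against the 3 highest libraries of each treatment, the log2 fold changes of deficits were -3.65 for Padi3, -3.45 for Tchh, -3.02 for Calhm4, -2.14 for Shh and -1.93 for Dlx4. Those of Lgr5 (-0.97), Padi1 (-0.90), Edar (-0.83), Alpl (-0.74) and Tcf7l1 (-0.73) were then under 2-fold. On the other side, Angptl7 was at 2.27, Fgf18 at 1.45, Mybph at 1.39, Slc26a7 at 1.16, Igfl3 at 0.95, Serpinb3a at 0.61, Cxcl2 at 0.49 and Sprr2f at 0.40. Without detergent A replicate 1, Padi3 was at -5.27, S100a8 at 2.44 and S100a9 at 1.93. With the score as a number, Cxcl2 was at 0.56.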
